A study of Homo sapiens with 46 samples.

Results

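The members described here are 8 genes of the human mitochondrial genome: the 3 cytochrome c oxidase mRNAs MT-CO1, MT-CO2 and MT-CO3, the cytochrome b mRNA MT-CYB, the ATP synthase mRNAs MT-ATP6 and MT-ATP8, and the ribosomal RNAs MT-RNR1 and MT-RNR2. They were chosen by gene symbol, not by any measured value, from the count tables deposited for each cell type, and all 8 were listed in all 4 of those tables. They are 8 of 21183 Ensembl genes listed in any of the 4 tables and of 10707 listed in every one. All 8 passed the filter on low counts in every comparison.

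The mitochondrial genome is a small circle inside the organelle that is transcribed as long precursors from both strands. Transfer RNAs lie between most of its genes, and cutting them out frees the mRNAs and ribosomal RNAs. The mRNAs encode core subunits of the respiratory chain and of ATP synthase and are translated inside the organelle, by ribosomes built on the 2 mitochondrial rRNAs, while most other subunits of the same complexes come from nuclear genes and are imported.

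On GRCh38 (GENCODE release 29), all 8 genes lie on the plus strand of chrM, MT-RNR1 at chrM:648-1601, MT-RNR2 at chrM:1671-3229, MT-CO1 at chrM:5904-7445, MT-CO2 at chrM:7586-8269, MT-ATP8 at chrM:8366-8572, MT-ATP6 at chrM:8527-9207, MT-CO3 at chrM:9207-9990 and MT-CYB at chrM:14747-15887. Mitochondrial genes have no introns, so each is a single exon. MT-ATP8 and MT-ATP6 share 46 bases, and MT-ATP6 and MT-CO3 share 1 base. These junctions are shown because a fragment that covers them lies in more than 1 member. How the counting divided such fragments is not known. The assembled MT-CO3 feature was longer than the gene, as given below, so the stretch in question may not be limited to these bases. In the first sequence, from chrM:8527-8572 on the plus strand, the capitals mark the start codon of MT-ATP6 and the stop codon of MT-ATP8. In the second, from chrM:9188-9226, they mark the stop codon of MT-ATP6 and the start codon of MT-CO3, which overlap by the shared base.
MT-ATP8 to MT-ATP6: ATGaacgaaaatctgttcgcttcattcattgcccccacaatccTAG
MT-ATP6 to MT-CO3: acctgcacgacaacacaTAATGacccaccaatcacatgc

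The deposited counts divide this stretch unevenly. The ratio of counts to TPM, the deposited level scaled by transcript length and library size, gave the MT-CO3 feature an implied length of 1417 bases, against 784 bases listed for the gene, and the feature shared its assembled locus with MT-ATP6. For MT-ATP8 the same ratio gave a median effective length of 2.02 bases in the 25 libraries with at least 50 counts and a TPM above 0. Its TPM was listed at 0 in 3 further libraries that held 207, 95 and 110 counts. MT-ATP8, whose product is a small subunit of the ATP synthase membrane part, has the lowest counts of the 8 and an effective length that makes its TPM unreliable. The sum of MT-ATP8, MT-ATP6 and MT-CO3 is given for cytoplasm against nucleus and where its call differs from that of MT-CO3.

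Total RNA was sequenced from subcellular fractions of H1, a human embryonic stem cell line (hPSC), and of 3 cell types derived from it over 5 days, labelled ectoderm, endoderm and mesoderm. There were 46 libraries in 16 groups, with 3 libraries in 15 groups and 1 library in mesoderm nucleoplasm. Nothing in the labels says that the libraries of a group came from separate cultures, so p-values measure the spread between these libraries, which may be technical. The stem cells were kept in mTeSR1 medium on Matrigel. Ectoderm cells received A83-01, PNU-74654 and dorsomorphin, each at 2 µM. Endoderm cells received activin A at 100 ng/ml and WNT3A. Mesoderm cells received activin A at 100 ng/ml for the first 24 hours, then BMP4 and VEGF at 100 ng/ml each with bFGF at 10 ng/ml. Every group had α-amanitin, an inhibitor of RNA polymerase II, at 25 µM in its fractionation buffers. The series design text also names actinomycin D, a transcription blocker, for half-life measurement, and no sample label gives it, so whether these cells received it is not known. Cells were opened with mild NP-40 detergent and spun slowly through sucrose, and the supernatant was the cytoplasm and the washed pellet the nucleus. Nuclei were then split with NP-40 and urea into nucleoplasm, the soluble part, and a chromatin pellet. No step that purifies or removes mitochondria is described, so "nucleus" and "cytoplasm" name a pellet and a supernatant.

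Library totals ran from 4990408 to 21298678 counts. No pair among the 45 replicate pairs had identical counts. Other genes checked the fraction labels. Of 6 cytoplasmic control mRNAs, 6 were higher in cytoplasm than in nucleus in hPSC, 4 in endoderm, 6 in mesoderm and 0 in ectoderm, where 3 were lower. In ectoderm, 4 of 6 nuclear control RNAs were higher in the libraries labelled cytoplasm, MALAT1 by 3.04 and NEAT1 by 2.55 on the log2 scale, which goes against those labels, and both were also higher in hPSC cytoplasm, by 1.44 and 1.35. The summed CPM (counts per 1000000 of the library total) of hPSC, ectoderm and endoderm markers was highest in their own cell type. The hPSC markers still reached 5110 in endoderm cytoplasm, against 5290 to 7254 in the hPSC fractions. Endoderm markers were not listed at all in hPSC or ectoderm. Of 7 mesoderm markers only 3 were listed in mesoderm, against 6 in endoderm. The mesoderm markers had summed fraction means of 41.4 to 135 CPM in mesoderm and 103 to 322 in endoderm. In hPSC 3 were also listed, at 28 in cytoplasm but 210 to 428 in the other fractions, above the mesoderm values there. The mesoderm label was thus not borne out by this list. In bulk RNA, fewer cells of a type and less RNA per cell cannot be told apart.

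Together the 8 RNAs took from 0.315% of a library, in hPSC cytoplasm replicate 2, to 11.4%, in endoderm nucleus replicate 1. In hPSC they made up 0.401% ± 0.0814 (SD, n = 3) of cytoplasm, 10.2% ± 0.932 of nucleus, 7.92% ± 0.327 of nucleoplasm and 3.71% ± 0.468 of chromatin counts. Ectoderm gave 0.969% ± 0.230, 6.96% ± 0.704, 6.46% ± 0.654 and 1.75% ± 0.307 in the same order, and endoderm gave 0.333% ± 0.0213, 8.32% ± 2.76, 7.81% ± 0.631 and 1.03% ± 0.102. Mesoderm had the other order, with 5.27% ± 0.606 in cytoplasm against 0.888% ± 0.0850 in nucleus, 1.29% in its single nucleoplasm library and 1.89% ± 2.04 in chromatin, where replicate 3 alone reached 4.24%.

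**Figure D1:**
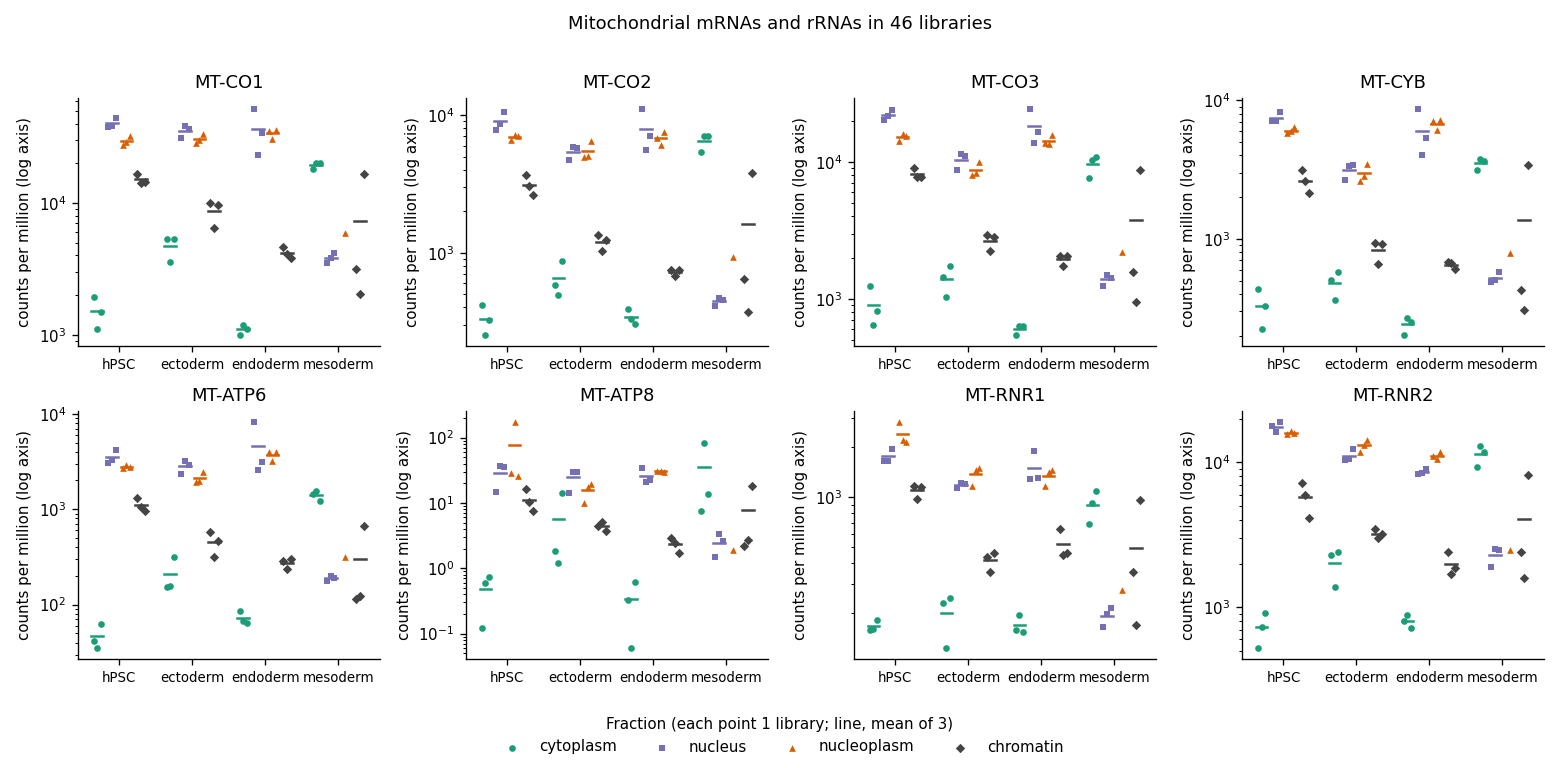
Level of each of the 8 mitochondrial RNAs, in CPM (log axis), by cell type and fraction. Each point is 1 library and each line the mean of 3. In hPSC, ectoderm and endoderm the cytoplasm points lie below the nucleus points, and in mesoderm they lie above them.

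The order of the groups differed between members and is given in full for MT-CO1, the catalytic core subunit of cytochrome c oxidase. Its mean was highest in hPSC nucleus (40278 CPM), followed by endoderm nucleus (36328), ectoderm nucleus (35507), endoderm nucleoplasm (33973), ectoderm nucleoplasm (30744) and hPSC nucleoplasm (29696), and each of these overlapped the next. Mesoderm cytoplasm came seventh at 19424 CPM, apart from hPSC nucleoplasm. Endoderm cytoplasm was lowest at 1098 CPM and overlapped hPSC cytoplasm at 1514 CPM. MT-RNR1, the small-subunit rRNA, was instead highest in hPSC nucleoplasm at 2401 CPM, with hPSC nucleus next at 1761 CPM. MT-ATP8 was also highest in hPSC nucleoplasm (76.3 CPM, range 25.5 to 174), and MT-ATP6 in endoderm nucleus (4638 CPM). Mesoderm cytoplasm had rank 4 for MT-RNR2 and rank 5 for MT-CO2 and MT-CYB. The lowest group was hPSC cytoplasm for MT-ATP6, MT-CO2, MT-RNR1 and MT-RNR2.

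In the authors' TPM, MT-CO1 had the highest value of the 7 members other than MT-ATP8 in 42 of 46 libraries, and MT-CO2 did in 4. The MT-CO3 TPM is scaled by the 1417-base feature, not by the 784-base gene. How reads were divided between MT-CO3 and MT-ATP6 is not known. The places of both in this order, and with them the top place of MT-CO1, are therefore uncertain. In hPSC nucleus the mean TPM was 43703 for MT-CO1, 32642 for MT-CO2, 26558 for MT-CO3, 18972 for MT-RNR2, 12884 for MT-ATP6, 12074 for MT-CYB and 3681 for MT-RNR1. MT-RNR1 was lowest of the 7 in 37 libraries and MT-ATP6 in 9. The authors' TPM therefore placed the rRNAs below or among the mRNAs in level, and whether rRNA was depleted before sequencing is not stated in the sources used here.

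Within every cell type the cytoplasm libraries were set against the nucleus libraries, which asks on which side of the low-speed spin these RNAs were found. In hPSC all 8 were lower in cytoplasm. MT-CO1 had 1950, 1104 and 1488 CPM in cytoplasm replicates 1 to 3 and 37826, 38526 and 44483 CPM in nucleus. The groups lay far apart, and the fitted change was −4.80 on the log2 scale (SE 0.24, adjusted p = 1.44e-09), or 27.8-fold lower.

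The other cytochrome c oxidase mRNAs changed by similar amounts in hPSC. MT-CO2, which encodes the subunit that takes electrons from cytochrome c, had 414, 252 and 327 CPM in cytoplasm against 7800, 8669 and 10542 CPM in nucleus. MT-CO3, the third core subunit, had 1243, 642 and 822 against 20066, 21799 and 23925 CPM. Neither gene's groups overlapped, and the log2 changes were −4.83 (SE 0.24) and −4.67 (SE 0.26). MT-CYB, the core subunit of complex III, had 432, 224 and 330 CPM against 7097, 7129 and 8182, again without overlap, for a log2 change of −4.57 (SE 0.25).

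MT-ATP6, the proton channel subunit of ATP synthase, had the lowest log2 change in hPSC. Its cytoplasm libraries held 41.7, 35.4 and 62.7 CPM and its nucleus libraries 3067, 3304 and 4207 CPM, a log2 change of −6.32 (SE 0.25, adjusted p = 2.69e-10). MT-ATP8 had 0.120, 0.601 and 0.730 CPM in cytoplasm, or 1, 9 and 11 counts, against 14.8, 37.1 and 35.3 CPM in nucleus. Its change was −5.82 (SE 0.93, adjusted p = 9.76e-05), and it rests on the lowest counts of the 8. With the authors' TPM it was −2.62 and not called (adjusted p = 0.546). The summed MT-ATP8, MT-ATP6 and MT-CO3 counts changed by −4.81 in hPSC, and by −3.41, −5.88 and 2.92 in ectoderm, endoderm and mesoderm.

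The rRNAs moved the same way in hPSC. MT-RNR1 had 158, 161 and 181 CPM in cytoplasm against 1663, 1660 and 1960 CPM in nucleus. The large-subunit rRNA MT-RNR2 had 524, 729 and 917 CPM against 17877, 16161 and 19078 CPM. Both sets of groups were apart, by −3.48 (SE 0.16, adjusted p = 7.61e-10) for MT-RNR1, which had the smallest change of the 8, and by −4.69 (SE 0.25) for MT-RNR2. The 8 of 8 called stand beside 65.4% of all genes called in this comparison. Of all genes, 30.3% were called lower, and 71.4% had groups that did not overlap. Such shares, here and in the comparisons below, are of all genes tested. The median log2 change was −4.74 over the 8 and 0.10 over all genes tested.

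In ectoderm all 8 were also lower in the libraries labelled cytoplasm. MT-CO1 had 5295, 3552 and 5327 CPM there and 31414, 38470 and 36638 CPM in nucleus, and fell by 3.28 (SE 0.24, adjusted p = 1.94e-07). MT-ATP6 fell by 4.12 (SE 0.32), from 2353, 3172 and 2921 CPM in nucleus to 155, 158 and 314 CPM. The groups did not overlap for any of the 8, and replicate 3 was the highest cytoplasm library for MT-ATP6. MT-RNR1 had 232, 124 and 246 CPM against 1132, 1227 and 1199 CPM, a change of −2.94 (SE 0.21), and MT-RNR2 changed by −2.82 (SE 0.20). The remaining values were −3.43 for MT-CO2, −3.27 for MT-CO3, −3.08 for MT-CYB and −2.51 for MT-ATP8 (adjusted p = 0.00528). MT-ATP8 changed by −4.37 without ectoderm cytoplasm replicate 3, and by 0.31 with the authors' TPM, where it was not called. In this comparison 53.7% of all genes were called, 26.5% lower, and 57.7% did not overlap. The medians were −3.17 over the 8 and 0.01 over all genes.

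In endoderm all 8 were again lower in cytoplasm than in nucleus. MT-CO1 had 995, 1191 and 1108 CPM in cytoplasm and 51683, 23126 and 34173 CPM in nucleus. The nucleus libraries differed among themselves by more than in hPSC, replicate 1 being the highest, but every one lay above every cytoplasm library. The log2 change was −5.85 (SE 0.44, adjusted p = 2.41e-08), or 57.9-fold lower. MT-ATP6 had 85.8, 66.6 and 64.7 CPM against 8229, 2570 and 3116 CPM, a change of −6.87 (SE 0.55), and MT-ATP8 had 6, 1 and 10 counts in cytoplasm and fell by 7.01 (SE 0.47). MT-ATP8 changed by −7.72 without cytoplasm replicate 3 and by −7.61 with the authors' TPM, which also gave −6.18 for MT-ATP6. MT-CO2, MT-CO3 and MT-CYB changed by −5.34, −5.70 and −5.44.

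The endoderm rRNAs had smaller changes than 6 of 6 mRNAs. MT-RNR1 had 159, 195 and 154 CPM in cytoplasm against 1296, 1890 and 1300 CPM in nucleus (log2 change −3.85, SE 0.23, adjusted p = 3.26e-09). MT-RNR2 had 804, 889 and 717 CPM against 8369, 8466 and 9008 CPM (−4.15, SE 0.26). Neither rRNA was highest in nucleus replicate 1 as MT-CO1 and MT-ATP6 were. All 8 were called, beside 69.7% of all genes, 35.4% lower, with 75.6% of all genes not overlapping, and the medians were −5.57 over the 8 and 0.01 over all genes. Without endoderm nucleus replicate 1 the change was −5.25 for MT-CO1, −5.84 for MT-ATP6 and −4.82 for MT-CYB. With library totals in place of TMM scaling factors, all 8 stayed called at smaller sizes, such as −5.05 for MT-CO1 and −3.15 for MT-RNR1, and the median of all genes moved to 0.71.

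Mesoderm went the opposite way, with all 8 higher in cytoplasm than in nucleus. MT-CO1 had 18153, 20031 and 20087 CPM in cytoplasm and 3524, 3822 and 4173 CPM in nucleus, a log2 change of 2.45 (SE 0.66, adjusted p = 0.00679), or 5.47-fold. MT-CO2 had 5351, 7108 and 7024 CPM against 412, 467 and 454 CPM, a change of 3.98 (SE 0.73, adjusted p = 0.000641), or 15.8-fold. The cytoplasm libraries were high in every replicate, and no group overlapped for any of the 8. MT-CO3 rose by 2.91 (SE 0.69, adjusted p = 0.00325) and MT-CYB by 2.85 (SE 0.73, adjusted p = 0.00533).

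For ATP synthase in mesoderm, MT-ATP6 had 1430, 1535 and 1215 CPM in cytoplasm and 178, 197 and 191 CPM in nucleus (log2 change 2.99, SE 0.57). MT-ATP8 had 7.55, 84.2 and 13.8 CPM against 1.48, 3.34 and 2.61 CPM, where cytoplasm replicate 2 stood far above the others. Its change was 4.02 (SE 1.01) and 2.27 (adjusted p = 0.0286) without that library. Of the rRNAs, MT-RNR1 had 694, 923 and 1090 CPM against 164, 199 and 215 CPM (2.35, SE 0.49, adjusted p = 0.00147), and MT-RNR2 had 9353, 12969 and 11800 CPM against 1895, 2511 and 2476 CPM (2.43, SE 0.53, adjusted p = 0.002).

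The mesoderm count of 8 stands beside 63.2% of all genes called, 31.8% higher, and 74.8% not overlapping, with medians of 2.88 over the 8 and 0.00 over all genes. The fit takes its spread from all mesoderm libraries. Without chromatin replicate 3, which stood apart from the other mesoderm chromatin libraries, all 8 were again called, and MT-CO1 changed by 2.45 with an SE of 0.25. With the authors' TPM in place of counts, 4 of 8 were called, namely MT-CO2 (2.74, adjusted p = 0.00375), MT-ATP6 (1.76, adjusted p = 0.0111), MT-CO3 (1.71, adjusted p = 0.0364) and MT-CYB (1.67, adjusted p = 0.0421). MT-CO1 (1.28, adjusted p = 0.13), MT-RNR2 (1.25, adjusted p = 0.0725), MT-ATP8 (1.16, adjusted p = 0.124) and MT-RNR1 (1.13, adjusted p = 0.0514) were not called there, and the median of all genes was lower by 0.82 on that scale.

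**Figure D2:**
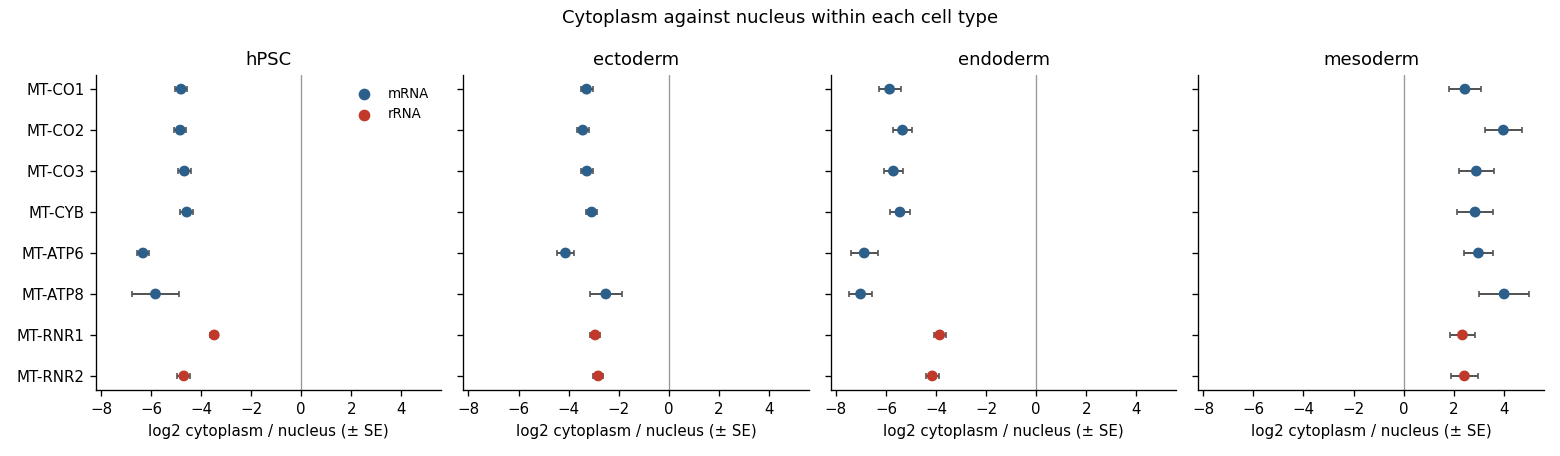
Cytoplasm against nucleus as a log2 change in each cell type, with the standard error from edgeR's fit as bars, for the 6 mRNAs (blue) and the 2 rRNAs (red). All 8 points lie below 0 in hPSC, ectoderm and endoderm and above 0 in mesoderm.

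The difference between cell types was tested itself, as the cytoplasm to nucleus change in each derived type minus that in hPSC. These tests share the hPSC libraries. In mesoderm against hPSC all 8 were higher, from 5.90 for MT-RNR1 to 9.92 for MT-ATP8, with 7.33 for MT-CO1, beside 25.3% of all genes called, 18.5% higher. In ectoderm 7 of 8 were higher, from 1.54 for MT-CO2 and MT-CO3 to 3.43 for MT-ATP8, beside 52.3% of all genes called, 26.3% higher. MT-RNR1 was not called (0.67, adjusted p = 0.0671). It was called with library totals (0.84), DESeq2 (0.75) or scaling without mitochondrial genes (0.74), but not with upper-quartile factors, no filter or a replicate block. Of the leave-outs, it was called only without ectoderm nucleus replicate 2 (0.89) or ectoderm cytoplasm replicate 2 (0.89). The MT-ATP8 call in ectoderm ended without ectoderm cytoplasm replicate 3 (1.53, adjusted p = 0.346). It also ended, at values of 3.13 to 3.75 and adjusted p of 0.0578 to 0.0711, without ectoderm nucleus replicate 1, hPSC nucleus replicate 2 or 3, or any hPSC cytoplasm library. In endoderm 0 of 8 were called by edgeR, beside 38.5% of all genes, with 2 at an unadjusted p under 0.05, namely MT-CO1 (−1.03) and MT-CO3 (−1.0). DESeq2 called these 2.

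Other gene lists show what else changed between the same libraries. The 7 complex I mRNAs of the mitochondrial genome, of NADH dehydrogenase, were all lower in cytoplasm in hPSC (median −5.48), ectoderm (−3.58) and endoderm (−6.18), and 6 of 7 were higher in mesoderm (2.66), where MT-ND5 was at 0.20. Nuclear-encoded subunits of the same complexes as the members were mostly higher in cytoplasm in hPSC, endoderm and mesoderm. In hPSC cytoplasm, 9 of 9 of complex III, 7 of 10 of complex IV and 15 of 15 of ATP synthase were higher, among them UQCRH (2.21), COX7B (1.87) and ATP5PO (1.41), while COX6A1 was lower (−1.54). In mesoderm 8 of 9, 9 of 10 and 14 of 15 were higher, with UQCR10 at 3.22, COX8A at 2.80 and ATP5MC2 at 2.56. In endoderm the counts were 5 higher and 1 lower for complex III, 5 and 1 for complex IV and 13 and 0 for ATP synthase. In ectoderm they were 1 and 3, 2 and 2, and 3 and 2.

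The mRNAs of 11 proteins made at the endoplasmic reticulum were lower in cytoplasm in all 4 cell types, 11 of 11 in each, with medians of −3.44, −1.77, −3.26 and −2.47 in hPSC, ectoderm, endoderm and mesoderm. Their examples include the chaperone HSPA5 at −3.93 in hPSC and the disulfide isomerase PDIA4 at −3.37 in mesoderm. So in hPSC, ectoderm and endoderm the mitochondrial RNAs were lower in cytoplasm together with these mRNAs, and in mesoderm they were higher while these mRNAs were lower. The part of membranes or organelles in the pellet in these values was not tested. Of the nuclear genes for mitochondrial transcription and RNA processing, 14 were higher and 2 lower of 26 in hPSC, 13 and 7 in ectoderm, 14 and 5 of 25 in endoderm and 8 and 6 in mesoderm. The mitochondrial RNA polymerase POLRMT was lower in hPSC (−1.49), ectoderm (−1.29) and endoderm (−2.54).

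**Figure D3:**
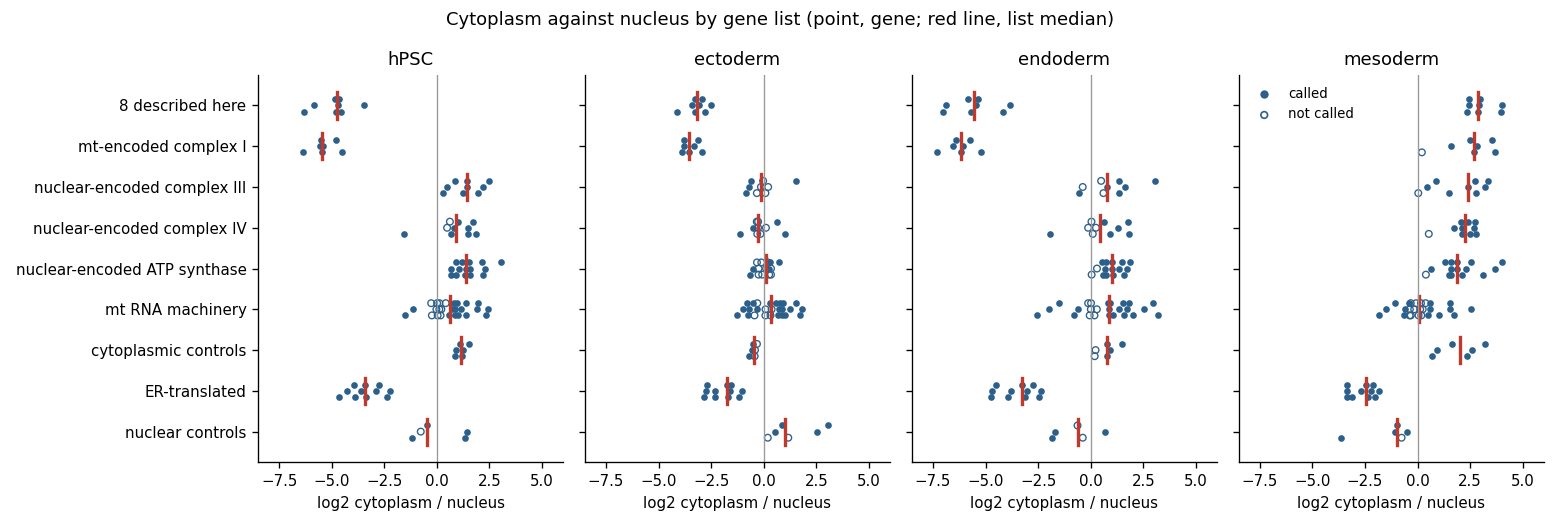
Log2 change of cytoplasm against nucleus for the genes of each list, by cell type. Each point is 1 gene, filled where called at adjusted p under 0.05 and open where not, and the red line is the list's median. The mitochondrial lists change side in mesoderm, and the endoplasmic reticulum list lies below 0 in all 4 cell types.

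Within the nucleus, chromatin was compared with nucleoplasm, and all 8 were lower in chromatin in the 3 cell types with replicates of both. In hPSC, MT-CO1 had 16739, 14221 and 14516 CPM in chromatin and 27782, 28877 and 32429 CPM in nucleoplasm, a change of −1.20. MT-RNR2 had 7253, 5979 and 4105 CPM against 15821, 16433 and 15991 CPM, a change of −1.71. Both were lower in every chromatin library. The other hPSC changes were −1.38 for MT-CO2, −1.14 for MT-CO3, −1.43 for MT-CYB, −1.56 for MT-ATP6, −1.36 for MT-RNR1 and −2.99 for MT-ATP8. MT-ATP8 had 29, 174 and 25.5 CPM in nucleoplasm, with replicate 2 far above the others, and changed by −1.49 (adjusted p = 0.0215) without it. With the authors' TPM it was not called (−5.58, adjusted p = 0.189), and MT-CO2 (−0.77), MT-ATP6 (−0.95) and MT-RNR1 (−0.75) changed by less. In hPSC 30.4% of all genes were called, 13.3% lower, and 54.3% did not overlap, as 8 of 8 members did not.

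In ectoderm the same comparison gave larger values than in hPSC for the 7 members other than MT-ATP8, a difference that was not tested. MT-CO1 had 10019, 6413 and 9623 CPM against 28505, 30168 and 33561 CPM in nucleoplasm (−2.12), and these 7 ran from −2.01 for MT-CO3 to −2.53 for MT-ATP6. MT-ATP8 changed by −2.09, and its call ended when any of 5 libraries was left out, at −1.89 to −2.17 with adjusted p of 0.0553 to 0.0835. With the authors' TPM the ectoderm changes were smaller, such as −1.38 for MT-CO1 and −1.81 for MT-ATP6. In ectoderm 44.1% of all genes were called, 25.7% lower, and 59.9% did not overlap, as 8 of 8 members did not.

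In endoderm the changes were larger than in hPSC and ectoderm for 7 members, and for MT-RNR1 the value lay between theirs and close to that in ectoderm. These differences between cell types were not tested. MT-CO1 had 4610, 4085 and 3845 CPM in chromatin against 35196, 30542 and 36179 CPM in nucleoplasm (−3.60), and MT-ATP6 had 290, 235 and 301 CPM against 3942, 3207 and 3992 CPM (−4.34). MT-RNR1 had 647, 450 and 464 CPM against 1171, 1422 and 1454 CPM and changed by −1.96, and MT-RNR2 by −3.07. All were apart in every library, and both rRNAs changed by less than the 6 mRNAs, the smallest of which was −3.47 for MT-CO3. With the authors' TPM MT-CO1 changed by −2.96 and MT-RNR1 by −1.33. In endoderm 53.4% of all genes were called, 30.6% lower, and 71.2% did not overlap. The medians over the 8 were −1.41, −2.13 and −3.71 in hPSC, ectoderm and endoderm, against 0.00, −0.09 and −0.12 over all genes. The 7 mitochondrial complex I mRNAs were all lower too, with medians of −1.40, −2.20 and −3.73, and so were 9, 11 and 11 of the 11 endoplasmic reticulum mRNAs, with medians of −0.68, −1.05 and −2.25.

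Chromatin was also compared with cytoplasm, which shares its libraries with the comparisons above. In hPSC all 8 were higher in chromatin, from 2.59 for MT-RNR1 to 4.43 for MT-ATP6, beside 63.4% of all genes called, 35.2% higher. No member's groups overlapped, beside 65.3% of all genes. With the authors' TPM the 7 members other than MT-ATP8 changed by more, such as 4.11 for MT-CO1, 3.47 for MT-RNR1 and 5.34 for MT-ATP6, and MT-ATP8 was not called (1.57, adjusted p = 0.698). In endoderm all 8 were higher, from 1.24 for MT-CO2 to 2.92 for MT-ATP8, beside 73% of all genes called, 37.7% higher. Here too no member's groups overlapped, beside 79.7% of all genes. MT-ATP8, with its few cytoplasm counts, was at 3.63 without endoderm cytoplasm replicate 3 and at 4.38 with the authors' TPM.

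In ectoderm 5 of 8 were called higher than in the libraries labelled cytoplasm, namely MT-ATP6 (0.79), MT-RNR1 (0.76), MT-CO3 (0.62), MT-CO2 (0.57) and MT-CO1 (0.56), beside 60.7% of all genes called, 29% higher. The groups overlapped for MT-ATP6 and MT-ATP8 and not for the other 6, beside 70.1% of all genes not overlapping. MT-CYB (0.47, adjusted p = 0.0582), MT-RNR2 (0.37, adjusted p = 0.104) and MT-ATP8 (−0.68, adjusted p = 0.411) were not called. MT-CYB was called with library totals (0.79), upper-quartile factors (0.55), DESeq2 (0.55), no filter (0.55), scaling without mitochondrial genes (0.57) or TPM (1.62). MT-RNR2 was called with library totals (0.68), upper-quartile factors (0.45), DESeq2 (0.44) or TPM (1.53). TPM also raised the 5 called values to between 1.69 for MT-CO1 and 2.01 for MT-ATP6. MT-ATP8 turned to 1.33 (adjusted p = 0.0342) without ectoderm cytoplasm replicate 3 and to 2.12 with the authors' TPM. Of the 5 calls, only that of MT-RNR1 was made whichever single library was left out. MT-CO1 and MT-CO2 were not called without chromatin replicate 1 (0.55 and 0.59), chromatin replicate 3 (0.58 and 0.65), cytoplasm replicate 1 (0.70 and 0.56) or cytoplasm replicate 2 (0.43 and 0.44). MT-ATP6 was not called without chromatin replicate 1 (0.67), cytoplasm replicate 1 (0.67) or cytoplasm replicate 2 (0.66), and MT-CO3 without chromatin replicate 1 (0.65) or cytoplasm replicate 2 (0.48). MT-CYB was called without chromatin replicate 2 (0.68) or cytoplasm replicate 3 (0.71), and MT-RNR2 without the latter (0.60).

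In mesoderm 5 of 8 were lower in chromatin than in cytoplasm, namely MT-ATP6 (−2.41), MT-ATP8 (−2.36), MT-CO2 (−2.22), MT-RNR2 (−1.70) and MT-CO1 (−1.62), beside 66.4% of all genes called, 32.4% lower. The groups did not overlap for MT-CO1, MT-CO2, MT-ATP6 and MT-RNR2, beside 68.1% of all genes. MT-CO3 (−1.56, adjusted p = 0.0525), MT-CYB (−1.56, adjusted p = 0.068) and MT-RNR1 (−1.08, adjusted p = 0.0614) were not called. The 3 chromatin libraries held 3131, 2026 and 16663 CPM of MT-CO1, so that replicate 3 came close to the cytoplasm libraries. Without it all 8 were called lower, MT-CO1 by −3.10, MT-CO2 by −3.87, MT-CO3 by −3.12, MT-CYB by −3.44, MT-ATP6 by −3.73, MT-ATP8 by −3.99, MT-RNR1 by −1.99 and MT-RNR2 by −2.70. The MT-CO1 call ended without chromatin replicate 1 (−1.29) or 2 (−1.18) and without cytoplasm replicate 1 (−1.77), 2 (−1.59) or 3 (−1.57). MT-RNR1 was called without cytoplasm replicate 1 (−1.33), and MT-ATP8 was not called without cytoplasm replicate 2 (−0.64, adjusted p = 0.468), chromatin replicate 1 (−1.99, adjusted p = 0.116) or chromatin replicate 2 (−1.93, adjusted p = 0.122). The summed MT-ATP8, MT-ATP6 and MT-CO3 counts were called lower (−1.65, adjusted p = 0.0413). The authors' TPM called 2 of 8. In the same comparison 11 of 11 endoplasmic reticulum mRNAs were higher in chromatin (median 1.59), and the nuclear-encoded subunits of complexes III, IV and ATP synthase were lower, 9 of 9, 10 of 10 and 15 of 15.

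**Figure D4:**
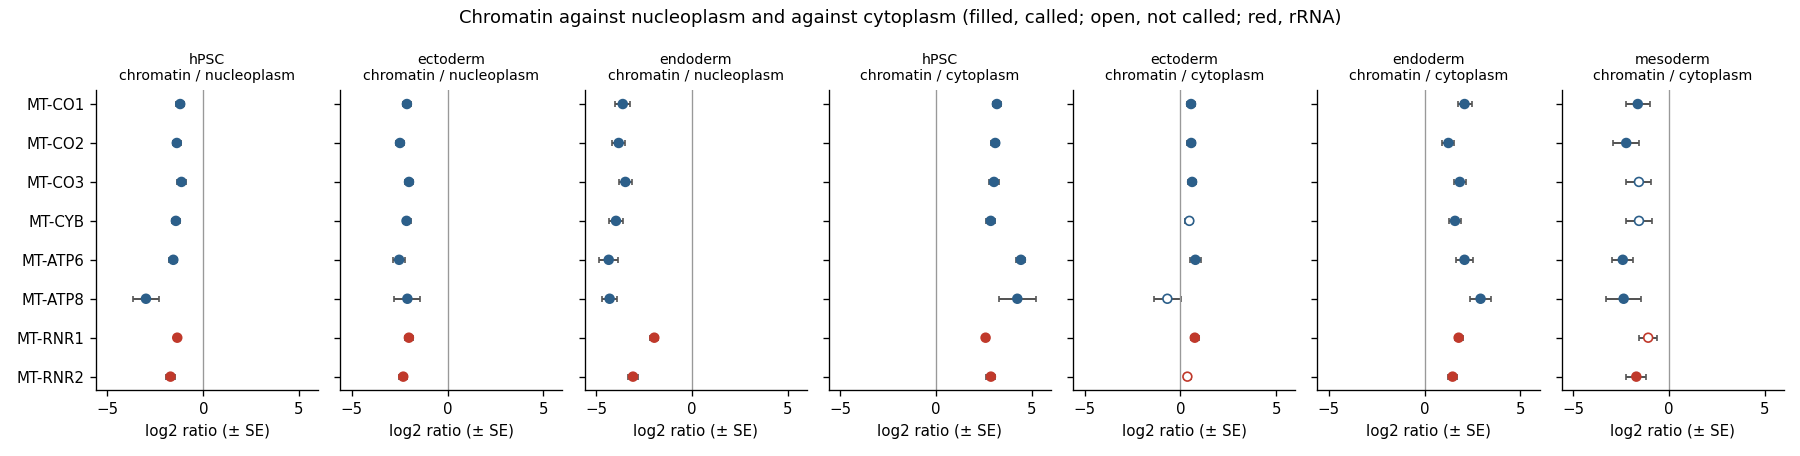
Log2 change of chromatin against nucleoplasm (hPSC, ectoderm, endoderm) and of chromatin against cytoplasm (all 4 cell types), for the 8 mitochondrial RNAs with standard errors, rRNAs in red. Filled points were called at adjusted p under 0.05. Chromatin lies below nucleoplasm in all 3 cell types, above cytoplasm in hPSC and endoderm, and below cytoplasm in mesoderm.

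The single mesoderm nucleoplasm library has no replicate and enters no test. The number in its deposited column differs from the repeat number in its label, and it was matched as the only mesoderm nucleoplasm sample. It held 5881 CPM of MT-CO1 (95% Wilson interval 5844 to 5919, for counting error only), 2479 CPM of MT-RNR2 (2455 to 2504) and 1.94 CPM of MT-ATP8 (1.36 to 2.75). For MT-CO1 it lay above the 3 mesoderm nucleus libraries and below the 3 cytoplasm libraries. For MT-RNR2 and MT-ATP8 it lay within the range of the mesoderm nucleus libraries (1895 to 2511 and 1.48 to 3.34 CPM).

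Ectoderm, endoderm and mesoderm were each set against hPSC within 1 fraction at a time, and these comparisons share the hPSC libraries. In mesoderm cytoplasm all 8 were higher, MT-CO2 by 4.26, MT-RNR2 by 3.94, MT-CO1 by 3.64, MT-CO3 and MT-CYB by 3.38, MT-RNR1 by 2.40, MT-ATP6 by 4.86 and MT-ATP8 by 5.99, beside 68% of all genes called, 34.9% higher. No member overlapped, beside 69% of all genes. MT-ATP8 was at 4.25 without mesoderm cytoplasm replicate 2. In mesoderm nucleus all 8 were lower, from −3.11 for MT-RNR2 to −4.50 for MT-CO2, beside 54% of all genes called, 27.9% lower, and no member overlapped, beside 71.8% of all genes. The 7 mitochondrial complex I mRNAs showed medians of 4.07 and −3.75, all called. The 25 nuclear genes of mitochondrial transcription and RNA processing went another way in mesoderm cytoplasm, where 0 were higher and 22 lower (median −0.70).

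In ectoderm 7 of 8 were higher in the libraries labelled cytoplasm than in hPSC cytoplasm, beside 76% of all genes called, 39% higher. MT-ATP6 was higher by 2.10, MT-CO1 by 1.57, MT-RNR2 by 1.41, MT-CO2 by 0.91, MT-CO3 by 0.56, MT-CYB by 0.49 and MT-ATP8 by 3.33, and MT-RNR1 was not called (0.19, adjusted p = 0.403). In CPM, MT-CO3, MT-CYB and MT-RNR1 overlapped and the other 5 did not, beside 74.3% of all genes not overlapping. MT-CO3 and MT-CYB were not called without ectoderm cytoplasm replicate 1 (0.58 and 0.49) or 3 (0.40 and 0.35), or without hPSC cytoplasm replicate 2 (0.38 and 0.28) or 3 (0.48 and 0.47), and MT-ATP8 was not called without ectoderm cytoplasm replicate 3 (1.42, adjusted p = 0.359). Its call also ended without hPSC cytoplasm replicate 1 (3.04), 2 (3.45) or 3 (3.65), at adjusted p of 0.0598 to 0.0695. Of the genes of mitochondrial transcription and RNA processing, 1 was higher and 21 were lower.

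In ectoderm nucleus 4 of 8 were lower than in hPSC nucleus, MT-CYB by −1.17, MT-CO3 by −0.99, MT-RNR2 by −0.61 and MT-RNR1 by −0.50, beside 57.6% of all genes called, 28.9% lower. The groups overlapped for MT-CO1, MT-ATP6 and MT-ATP8, beside 68% of all genes not overlapping. Of the 4, only MT-CYB was called whichever single library was left out. MT-RNR2 and MT-RNR1 were not called without ectoderm nucleus replicate 1 (−0.50 and −0.39) or 3 (−0.65 and −0.47), or without hPSC nucleus replicate 1 (−0.62 and −0.56), 2 (−0.66 and −0.52) or 3 (−0.52 and −0.38). MT-CO3 was not called without ectoderm nucleus replicate 1 (−0.82) or 3 (−0.99), or without hPSC nucleus replicate 3 (−0.89).

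In endoderm cytoplasm 3 of 8 were lower than in hPSC cytoplasm, MT-CO3 by −0.80, MT-CO1 by −0.68 and MT-CYB by −0.66, beside 59.6% of all genes called, 32.2% lower. Only MT-CO3 and MT-ATP6 did not overlap in CPM, beside 61.1% of all genes. All 3 calls ended without endoderm cytoplasm replicate 1 (−0.67, −0.56 and −0.49), and MT-CYB was not called without hPSC cytoplasm replicate 1 (−0.40). With library totals as the scale, MT-CO1 (−0.46) and MT-CYB (−0.44) were not called. MT-ATP6 (0.42, adjusted p = 0.158) was called without hPSC cytoplasm replicate 3 (0.68). In endoderm nucleus only MT-RNR2 was called, lower by −0.63, beside 57% of all genes called, 28.3% lower, and it alone did not overlap, beside 66.5% of all genes. That call ended without endoderm nucleus replicate 2 (−0.54) or 3 (−0.57), or hPSC nucleus replicate 1 (−0.65) or 3 (−0.54). MT-ATP6 (0.92) was called without endoderm nucleus replicate 2 (1.27) or 3 (1.23). The members other than MT-RNR2 in endoderm nucleus changed sign with the scale or with endoderm nucleus replicate 1, so no direction is given for them.

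Nuclear-encoded subunits of the same complexes were called lower in the cytoplasm of each derived type than in hPSC cytoplasm. In complexes III, IV and ATP synthase these were 7 of 9, 8 of 10 and 12 of 15 in ectoderm, 7, 9 and 11 in endoderm, and 5, 8 and 10 in mesoderm, and 0 were called higher.

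The rRNAs were set against the mRNAs within each library, as the summed counts of MT-RNR1 and MT-RNR2 over those of the 6 mRNAs. Whether rRNA was depleted is not stated, and the part of any depletion in the rRNA ratios here and below was not tested. The ratio ran from 0.0930 in endoderm nucleus replicate 1 to 0.469 in mesoderm chromatin replicate 1, with a median of 0.283. In endoderm it was 0.412 ± 0.0384 (SD, n = 3) in cytoplasm and 0.153 ± 0.0589 in nucleus, with ranges of 0.368 to 0.435 and 0.0930 to 0.211 that did not overlap. The difference of the mean log2 ratios was 1.50, or 1.18 to 1.77 when single libraries were left out. In ectoderm it was 0.295 ± 0.0234 in the libraries labelled cytoplasm and 0.215 ± 0.0234 in nucleus, also without overlap, a log2 difference of 0.45.

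Mesoderm had the ratio the other way round, at 0.302 ± 0.0217 in cytoplasm (0.281 to 0.325) and 0.388 ± 0.0336 in nucleus (0.352 to 0.418), a log2 difference of −0.36. In hPSC the ranges overlapped, at 0.167 to 0.394 in cytoplasm and 0.224 to 0.258 in nucleus, and the log2 difference of 0.28 moved between 0.05 and 0.67 without single libraries. An exact two-sided permutation test of 3 against 3 libraries cannot give a p below 0.1, so no p is given for these ratios. The 3 non-overlapping differences kept their sign with TPM, without MT-ATP8 and with MT-RNR2 alone.

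The libraries also differed in the level of 1 rRNA against the other. The ratio of MT-RNR2 to MT-RNR1 in TPM ran from 1.73 in hPSC cytoplasm replicate 1 to 7.68 in mesoderm cytoplasm replicate 2, with a median of 4.31. In hPSC it was 2.24 ± 0.452 (SD, n = 3) in cytoplasm against 5.17 ± 0.266 in nucleus, and these ranges did not overlap. It was lowest by group mean in endoderm chromatin, at 1.99 ± 0.0713, and highest in mesoderm cytoplasm, at 6.71 ± 1.04, where mesoderm nucleus had 6.13 ± 0.303.

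Among the cytochrome c oxidase mRNAs, the TPM ratio of MT-CO1 to MT-CO2 was 0.95 ± 0.0640 in mesoderm cytoplasm and 2.61 ± 0.169 in mesoderm nucleus. In endoderm the same ratio was 0.978 ± 0.179 in cytoplasm and 1.38 ± 0.0916 in nucleus, and it stayed close between fractions in hPSC, at 1.40 and 1.35. In ectoderm it was higher in the libraries labelled cytoplasm, at 2.37 ± 0.281 against 2.07 ± 0.0599 in nucleus, without overlap. MT-CO1 made up 48.2% ± 2.31 of the counts of the 6 mRNAs in mesoderm cytoplasm and 60.1% ± 1.08 in mesoderm nucleus. The count ratio of MT-CO3 to MT-ATP6, neighbours that share a locus in the assembly, was 20.4 ± 8.58 in hPSC cytoplasm (13.1 to 29.8) and 6.28 ± 0.511 in hPSC nucleus. How the counting divided their shared reads in each fraction was not tested.

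**Figure D5:**
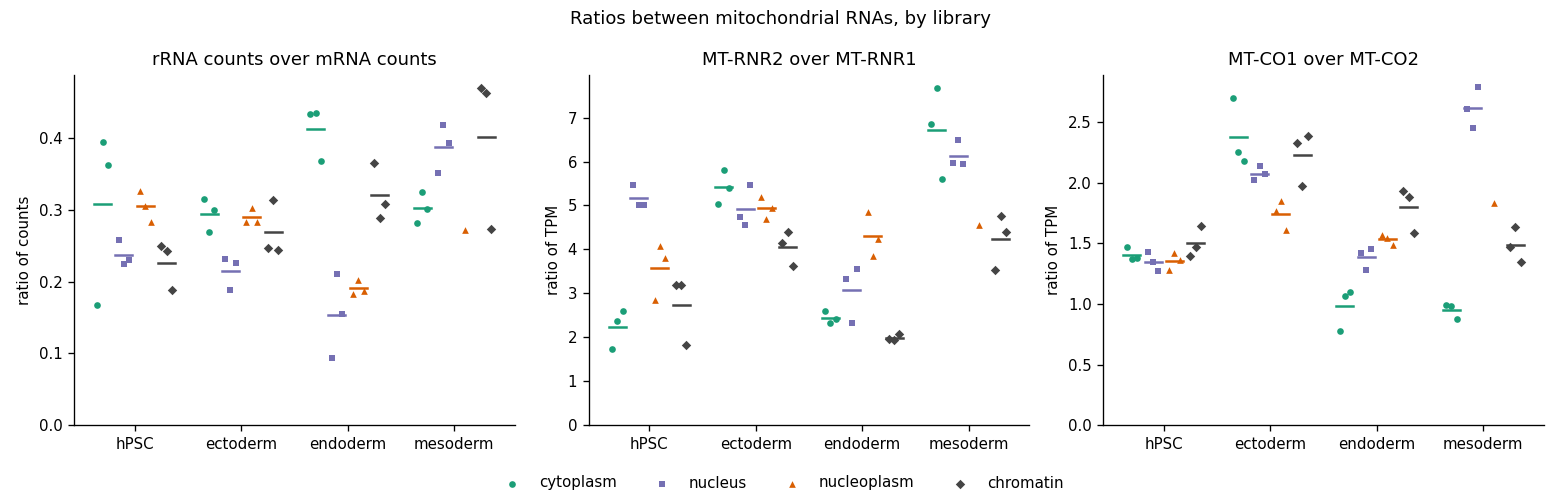
Ratios within each library by cell type and fraction: rRNA counts over mRNA counts, MT-RNR2 over MT-RNR1 in TPM, and MT-CO1 over MT-CO2 in TPM. Each point is 1 library. The rRNA to mRNA ratio is higher in cytoplasm than in nucleus in ectoderm and endoderm and lower in mesoderm.

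Across the 46 libraries the 8 members varied together. Pearson's r of log2 CPM ran from 0.879 to 0.994 over the 28 pairs, highest for MT-CO3 with MT-CYB, and was at least 0.927 over the 21 pairs without MT-ATP8. These correlations are a description over libraries that share cell types, fractions and library totals. Among 9171 ranked genes, the most like the summed member mRNAs in log2 CPM were ALG9 (r 0.760), SRPRB (0.738) and F2RL1 (0.717). All lay well below the correlations among the members. The mitochondrial complex I mRNAs are not among those named, though they mostly moved with the members in the comparisons above. No correlation with them is given, and whether they were among the ranked genes is not stated. Their absence therefore does not mean a lower correlation. The ranking therefore does not show that such co-variation is particular to the 8 members.

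Reads of nuclear copies of mitochondrial genes could be counted for either copy. The pseudogene MTCO1P12 held at most 2.14% of the MT-CO1 counts in any library, and MTATP6P1 held from 0.988% to 11.7% of the MT-ATP6 counts in ectoderm. On the deposited assembly named combined, whose tables were used for ectoderm libraries, MT-CYB counts were 52.2% to 80.9% of those on the ectoderm assembly. There MT-CYB changed by −2.87 in ectoderm cytoplasm against nucleus, by −2.35 in chromatin against nucleoplasm and by 0.23 in chromatin against cytoplasm (adjusted p = 0.477). The ectoderm against hPSC values of MT-CYB, 0.49 in cytoplasm and −1.17 in nucleus, compare separate assemblies and were not tested on a shared one.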

How the data were processed

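RNA sequencing libraries of 46 subcellular samples were grouped by cell type and fraction from their labels, and columns coded Nei were read as nucleus. The deposited tables hold expected counts, listed as whole numbers per assembled transcript, and TPM values, which the authors made on a separate transcript assembly for each cell type. STAR, RSEM and hg38 are named in the submitters' processing notes without versions, and strand use in counting is not given in the sources used here. There were 5 count and 5 TPM tables, the fifth of each on a combined assembly. A total of 2 columns, 1 in each ectoderm table, matched no sample and were not used. Their name resembles that of ectoderm cytoplasm replicate 3 with the prefix old, and ectoderm MT-ATP8 values depend on that replicate.

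Counts were summed by Ensembl gene, or by assembled gene where no identifier was listed. CPM is relative to the full table total, which limits precision through totals of 4990408 to 21298678 counts. Changes were tested with edgeR 4.0.16 (quasi-likelihood F-test, TMM factors) after filterByExpr at minimum count 10, in R 4.3.3, with Benjamini-Hochberg adjustment over all genes. A gene was called at an adjusted p under 0.05. SE is the absolute log2 change over the square root of F. Within a cell type the fit used all its libraries, and between types it used genes listed in all 4 tables. Alternatives were library totals or upper-quartile factors, no filter, DESeq2 1.42.0, limma 3.58.1 on log2(TPM + 1), scaling without mitochondrial genes, a replicate block and leaving out each library. The script was tested on simulated data with 200 changed genes.

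All 8 members were named in every comparison, with up to 3 genes of lowest adjusted p per list. MT-ND5 was named after its values were seen. Members and lists were chosen with earlier results of these data known. The summed MT-ATP8, MT-ATP6 and MT-CO3 counts and the mesoderm fit without chromatin replicate 3 were added after seeing the data.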

Additional observations from a re-analysis of the deposited data

Results flagged for a closer look

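The cytoplasm to nucleus change of 15 member and cell type pairs differed from that in hPSC by edgeR's test of the difference itself. Of all genes, 25.3% were called in the mesoderm test (18.5% higher) and 52.3% in the ectoderm test (26.3% higher). In the endoderm test no member was called, beside 38.5% of all genes. In mesoderm against hPSC the log2 difference was 7.33 for MT-CO1, 8.90 for MT-CO2, 7.66 for MT-CO3, 7.51 for MT-CYB, 9.39 for MT-ATP6, 9.92 for MT-ATP8, 5.90 for MT-RNR1 and 7.19 for MT-RNR2. MT-ATP8 was at 8.17 without mesoderm cytoplasm replicate 2. In ectoderm against hPSC it was 1.66 for MT-CO1, 1.54 for MT-CO2, 1.54 for MT-CO3, 1.64 for MT-CYB, 2.33 for MT-ATP6, 3.43 for MT-ATP8 and 2.00 for MT-RNR2. In those ectoderm libraries, nuclear control RNAs were higher in the fraction labelled cytoplasm, and the part of this in the difference was not tested. The MT-ATP8 difference in ectoderm was not called without ectoderm cytoplasm replicate 3 (1.53, adjusted p = 0.346), nor without any of 6 other libraries (3.13 to 3.75, adjusted p of 0.0578 to 0.0711).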

How the results depend on the processing

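Of 2299 member values refitted under alternatives, 2132 kept their sign and side of the threshold, 89 lost a call, 44 gained one and 34 changed sign. Only 1 of the sign changes was of a value called by the main test, MT-ATP8 in ectoderm cytoplasm against nucleus (0.31 with the authors' TPM). With TPM, mesoderm cytoplasm against nucleus called 4 members and mesoderm chromatin against cytoplasm 2, and MT-ATP8 in ectoderm chromatin against cytoplasm turned to 2.12. DESeq2 called 2 in endoderm against hPSC nucleus (1 higher, 1 lower) and 2 in the endoderm difference, and gave no adjusted p for 5 values, 3 of MT-ATP8 and 2 of MT-CYB. The causes were not tested.

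The replicate block called 8 in mesoderm chromatin against cytoplasm, 2 in ectoderm against hPSC nucleus and 0 in endoderm against hPSC nucleus. It moved no other count of members called by over 1.5 times. Same-numbered libraries correlated at −0.358 to 0.196 over all comparisons and at −0.344 to 0.176 within cell types, never all above 0.1 in a comparison. The main fit used no pairing. These correlations were taken over genes, on values centred within each group. With 3 libraries per group they cannot show whether same-numbered fractions came from 1 preparation. Every library correlated best with its own number only in ectoderm chromatin against nucleoplasm and endoderm chromatin against cytoplasm.

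With library totals, endoderm against hPSC cytoplasm turned to 0.04 for MT-CO2, 0.15 for MT-RNR2 and 0.02 for MT-RNR1, endoderm against hPSC nucleus to −0.15 for MT-CO1, −0.19 for MT-CO2, −0.27 for MT-CO3, −0.32 for MT-CYB, −0.17 for MT-ATP8 and −0.24 for MT-RNR1, and the endoderm difference to 0.23 for MT-CO2, 0.24 for MT-ATP6 and 0.26 for MT-RNR1, with 1 member called. Upper-quartile factors gave −0.07 for MT-CYB, −0.03 for MT-CO3 and −0.05 for MT-RNR1 in endoderm against hPSC nucleus and 1 call in the endoderm difference.

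Leaving out single libraries gave 1 to 8 calls in ectoderm and 3 to 8 in mesoderm chromatin against cytoplasm, 4 to 7 in ectoderm and 0 to 4 in endoderm against hPSC cytoplasm, 1 to 4 and 0 to 1 against hPSC nucleus, and 0 to 3 in the endoderm difference. Values that changed sign ranged as follows. In ectoderm chromatin against cytoplasm MT-ATP8 ran from −1.14 to 1.33. In endoderm against hPSC cytoplasm MT-CO2 ran from −0.33 to 0.02 and MT-RNR2 from −0.25 to 0.12. In ectoderm against hPSC nucleus MT-CO1 ran from −0.26 to 0.05 and MT-ATP8 from −0.46 to 0.18. In endoderm against hPSC nucleus MT-CO1 ran from −0.26 to 0.62, MT-CO2 from −0.28 to 0.54, MT-CO3 from −0.31 to 0.42, MT-CYB from −0.44 to 0.44, MT-ATP6 from −0.09 to 1.27 and MT-ATP8 from −0.22 to 0.51. In the endoderm difference MT-CO2 ran from −0.75 to 0.19 and MT-ATP6 from −0.89 to 0.59.

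The scale also moved the calls over all genes. Library totals changed the share of called genes that were higher by over 10 percentage points in 10 comparisons, with shifts of the all-gene median from −0.38 to 0.70 log2. In endoderm cytoplasm against nucleus this share went from 49.2% to 71.4%. TPM did so in 11 comparisons, with shifts of −0.82 to 0.83, and in mesoderm cytoplasm against nucleus it went from 50.3% to 10.6%. TPM called 7777 genes against 4302 in hPSC chromatin against nucleoplasm and 5337 against 8589 in ectoderm cytoplasm against nucleus. MT-ATP8, with 1 to 2447 counts a library and a median of 127, is the member that depth limits.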
